A study of Mus musculus with 19 samples.

Results

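The genes described here are those measured well enough in control melanoma cells to ask how many ribosome footprints each carried for its RNA. They were the genes with at least 50 counts in each of 4 libraries, made from the footprints (2 libraries) and the input RNA (2 libraries) of cells given a scrambled control (SCR). This rule took 11041 of the 55359 genes in the count tables. Another 3488 genes reached 50 counts in both input RNA libraries but not in both footprint libraries, and 1992 genes did the reverse. Just inside the minimum, 17 genes had a lowest count of 50, with log2 ratios of footprints to RNA of -3.30 to 9.12 and a median of 0.26. Just outside it, 29 genes had a lowest count of 49, with log2 ratios of -5.09 to 5.90 and a median of 0.01.

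The cells were B16-F10, a pigmented melanoma line of C57BL/6 mice kept in culture. In the study they were set against cells of the same line with a Mettl5 knockout (KO), in which the same pair of assays was run on 2 libraries each. The count columns of those libraries are named POOL, and they were taken as KO because the others are named SCR. METTL5 is a methyltransferase that modifies the RNA of the small ribosomal subunit. For footprints, cells of both genotypes were exposed for 8 min to cycloheximide (100 µg/ml), which stalls elongating ribosomes, and RNase then trimmed the unprotected RNA at 22 C over 40 min. The labels name no clone, and they do not say that the 2 replicates of a group came from separate cultures, so every p-value measures only the spread between these libraries.

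A ribosome covers and protects a short piece of the RNA it is reading, and sequencing the protected pieces counts ribosomes on each message. Dividing the footprints of a gene by its RNA gives a measure called translation efficiency, which is high when many ribosomes sit on each molecule, whether because they start often or because they move slowly. Cells hold many messages with few ribosomes on them. Among the best known are the messages of ribosomal proteins, which begin with a run of pyrimidines that growth signals act through, and those of the polyamine and iron pathways, whose own products feed back on their translation.

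The 4 libraries held 28059683 and 31301806 counts in footprints and 38968000 and 43083013 counts in input RNA, of which the 11041 genes took 95.9 to 96.0% of the footprint counts and 97.0% of the RNA counts. Counts are given below as CPM, counts scaled to a common library size, after TMM scaling, a correction that centres each library on the bulk of its genes. A log2 ratio of 0 is therefore the centre of that scaling and not equal numbers of ribosomes and RNA molecules. Input RNA covers whole transcripts whereas ribosomes occupy mostly the coding part, and the coding share of each transcript is not in the tables, so ratios of different genes also differ by transcript structure. Melanocyte markers were abundant in input RNA, at 13490 and 13657 CPM of library totals summed over 10 genes, none of them at 0 in both libraries. Blood cell markers summed to 3.59 and 4.02 CPM, those of fibroblasts and endothelium to 10.9 and 8.82 CPM and those of keratinocytes to 0.077 and 0 CPM.

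Footprints per RNA spread far more widely between genes than between replicates. The SD of the log2 ratio over the 11041 genes was 1.60, against a median standard error (SE) of 0.0784 for a single gene. Replicates differed by a median of 0.0890 on the log2 scale in footprints and 0.0668 in input RNA. The middle of the genes lay between log2 ratios of -0.82 and 1.16 (quartiles), with a median of 0.12. The 95th percentile, 3.11, was 34.5-fold above the 5th, -1.997. Across genes, mean footprint level and mean RNA level on the log2 scale had a Pearson r of 0.667 (n = 11041, a description, since both values of a gene share its length and its mapping).

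A gene was called high or low where its footprints and its RNA differed by at least 2-fold with a Benjamini-Hochberg adjusted p below 0.05 in edgeR's quasi-likelihood test. Of all 21756 genes tested, 32.9% were called high and 33.8% low. Of the 11041 genes, 3088 were high (28%) and 2281 were low (20.7%), while 5650 (51.2%) lay within 2-fold of the centre. The split between high and low depends on the scaling. With library totals alone the median ratio fell by 0.92 on the log2 scale, and 1667 genes were high and 4878 low, so that 25.5% of the calls were high, against 57.5% with TMM. The order of the genes is not touched by that shift, and the groups below are therefore also set against the median of all 11041 genes.

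**Figure D1:**
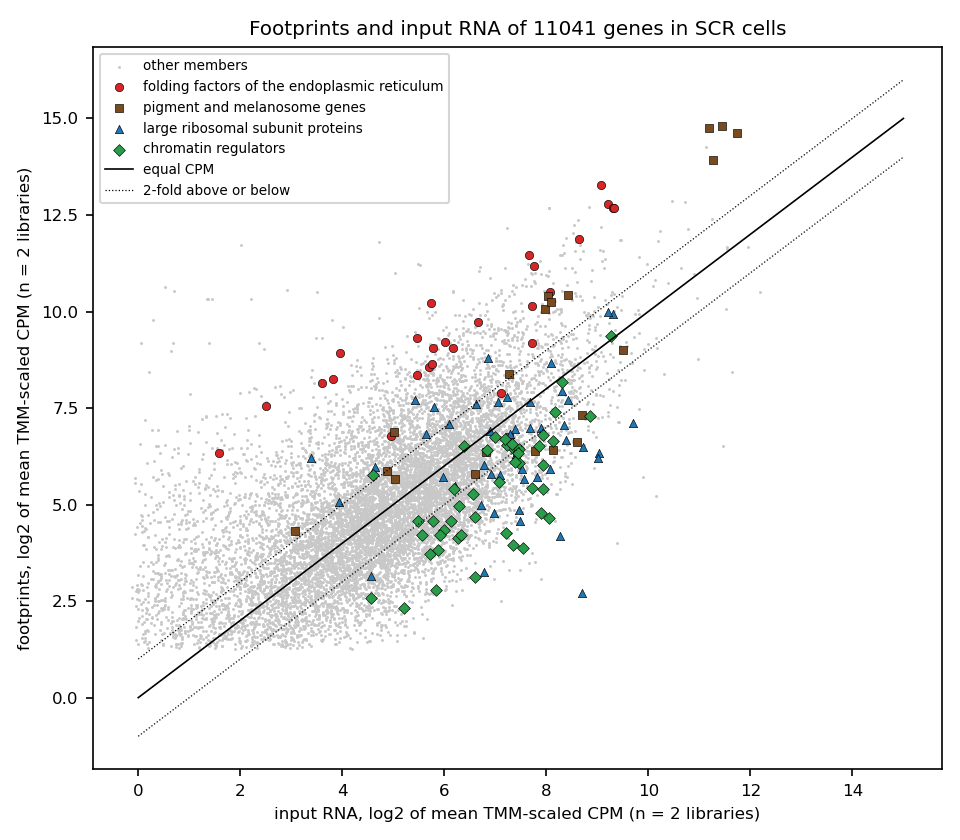
Footprints (vertical) against input RNA (horizontal) of the 11041 genes in SCR cells, each as the log2 of the mean TMM-scaled CPM of 2 libraries; the solid line marks equal CPM and the dotted lines a 2-fold difference. Endoplasmic reticulum folding factors lie above the upper dotted line for 25 of 26 genes, and chromatin regulators lie below the lower one for 33 of 46, while pigment genes and proteins of the large ribosomal subunit spread across both.

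Mettl5 itself carried footprints in the control cells, with 20.0 and 18.4 CPM in footprints, against 6.81 and 7.08 CPM in input RNA. Its log2 ratio was 1.46 (SE 0.0986, adjusted p = 8.54e-05), above the 2-fold threshold with TMM and at 0.55 with library totals alone. In the libraries taken as KO, Mettl5 still had counts, with 14.2 and 15.1 CPM in footprints and 5.07 and 4.91 CPM in input RNA, each below both SCR libraries of its assay. Its log2 ratio was 1.55 in KO cells and 1.46 in SCR cells (adjusted p of the difference 0.605, edgeR). The gene counts therefore do not show whether these columns hold the knockout, and directions between KO and SCR below rest on the column names. Its partner Trmt112, which stabilises METTL5 and several other methyltransferases, had 12.0 and 17.5 CPM in footprints and 11.02 and 11.3 CPM in input RNA, a log2 ratio of 0.40 (adjusted p = 0.0993) that turned to -0.52 with library totals and stood at 1.25 with the 2 pseudogene copies named after it, which held 54.5% of the joint footprints. Of the 9 genes of the Trmt112 and Mettl5 group, 1 was high (Mettl5) and 1 was low (Zcchc4, another RNA methyltransferase, at -1.28), around a median of -0.02.

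Secreted, membrane and small mitochondrial proteins were among the genes of highest ratio. The highest of the named protein genes was Scd4, a stearoyl-CoA desaturase, with 320 and 375 CPM in footprints and 1.29 and 1.01 CPM in input RNA (log2 ratio 8.24, SE 0.157). Its counts could be shared with its close relatives: Scd2 reached 7350 and 7385 CPM in footprints and 1670 and 1690 CPM in input RNA (log2 ratio 2.13), and the Scd genes summed gave a log2 ratio of 2.41. Ctsl, the lysosomal and secreted protease cathepsin L, had 2286 and 2499 CPM in footprints and 44.3 and 45.0 CPM in input RNA (log2 ratio 5.74, SE 0.0852, adjusted p = 2.84e-06). Ccn1, a matricellular protein that binds integrins, had 743 and 795 CPM in footprints and 16.7 and 15.8 CPM in input RNA (5.57). Itm2a, an integral membrane protein (5.75), Pltp, the phospholipid transfer protein of plasma (5.28), and Fkbp2, a prolyl isomerase of the endoplasmic reticulum (5.05), were also high. Snx22, a sorting nexin, stood at 5.89 (SE 0.305), and its KO footprint libraries disagreed, at 232 and 0.412 CPM. Atp5k, a small subunit of ATP synthase, stood at 5.10 and Rpl37rt, a retrotransposed copy of a ribosomal protein gene, at 5.43. These completed the genes of highest ratio whose SCR footprint libraries lay less than 2-fold apart.

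In the remaining genes among the 12 highest, the footprint libraries disagreed. Phyhipl had 30.8 and 436 CPM in footprints, against 2.38 and 1.66 CPM in input RNA. Ccdc107 had 48.2 and 415 CPM in footprints, against 6.30 and 7.61 CPM in input RNA. Lars2, the mitochondrial leucyl-tRNA synthetase, had 567 and 1243 CPM in footprints, against 27.5 and 24.96 CPM in input RNA. In each of them the second footprint library was more than 2-fold above the first, so their log2 ratios of 6.86 (SE 1.46), 5.06 (SE 1.09) and 5.11 (SE 0.430) are known less well than those of their neighbours. Without the second footprint library, the log2 ratio of Phyhipl was 3.94 and the log2 ratio of Ccdc107 2.80. Without the first input RNA library they were 7.12 (adjusted p = 0.0587) and 4.91 (adjusted p = 0.0678), and without the second 6.60 (adjusted p = 0.0657) and 5.18 (adjusted p = 0.0626), which no longer passed the threshold of edgeR's quasi-likelihood test.

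The lowest ratios included proteins of the ribosome, histone H3 genes and tubulin. Rpl10, a large-subunit protein needed for the joining of the subunits, had 7.55 and 5.50 CPM in footprints and 417 and 412 CPM in input RNA (log2 ratio -5.99, SE 0.149). Rpsa, which encodes the small-subunit protein uS2, had 40.2 and 34.0 CPM in footprints and 1131 and 1143 CPM in input RNA (-4.94). Ube2l3, a ubiquitin-conjugating enzyme, had 5.26 and 6.04 CPM in footprints and 139 and 137 CPM in input RNA (-4.61, SE 0.0819). The footprint and RNA libraries of these genes were far apart and the replicates close together. Tuba1b, an alpha-tubulin, had 55.1 and 50.6 CPM in footprints and 952 and 962 CPM in input RNA (-4.18). Cenpb, which binds centromeric repeats (-3.99), Hmga2, a chromatin protein of proliferating cells (-3.74), and Rai1, a chromatin regulator (-3.67), were also among the 12 lowest, with H3c8 (-4.82), H3c2 (-4.27), H3c1 (-3.96), Rpl29 (-4.09) and Rps12 (-3.90).

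**Figure D2:**
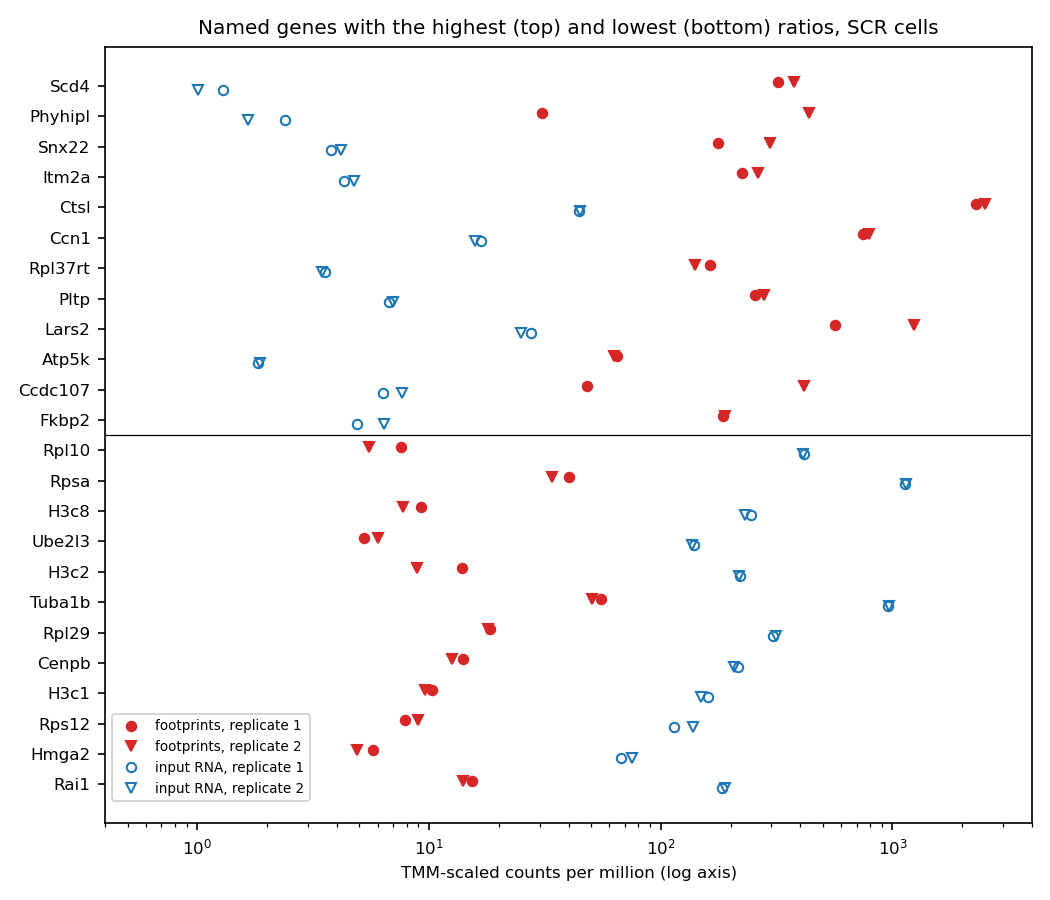
TMM-scaled CPM on a log axis of the 12 named genes with the highest ratios (above the line) and the 12 with the lowest (below it) in SCR cells; filled red symbols are the 2 footprint libraries, open blue symbols the 2 input RNA libraries. Footprints and RNA do not overlap in any of the 24 genes, and the 2 footprint libraries lie far apart for Phyhipl, Ccdc107 and Lars2.

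The proteins that enter the endoplasmic reticulum stood highest as groups; the lists of folding factors, lysosomal genes and chromatin regulators were written after ratios had been seen, so their direction is no independent evidence. Of 26 folding factors of the endoplasmic reticulum, 25 were high and none was low, with a median log2 ratio of 3.31 that lay 3.19 above the median of all 11041 genes. Hsp90b1, the Hsp90 of the endoplasmic reticulum, had 9367 and 10310 CPM in footprints and 501 and 570 CPM in input RNA (4.20). Hspa5, its Hsp70 chaperone known as BiP, had 6021 and 7149 CPM in footprints and 621 and 656 CPM in input RNA (3.37). Footprints exceeded RNA 18.4-fold and 10.3-fold in these chaperones, which were named with their values known. Prdx4, a peroxiredoxin of that compartment (4.97), Nucb2, a calcium-binding protein (4.75), Pdia5, a protein disulfide isomerase (4.44), and Ppib, cyclophilin B (3.07), were the list's members of smallest p. Fkbp2, named above, had the list's highest ratio (5.05). The exception was Dnajc3, a co-chaperone of BiP, at 0.78.

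Of the 30 genes of the extracellular matrix and secreted list, 21 reached the minimum count. All 21 were high, with a median log2 ratio of 3.11 and a range of 1.17 to 5.74. Lamc1, a laminin chain of basement membranes, had 2876 and 3023 CPM in footprints and 324 and 326 CPM in input RNA (3.18). Enpp2, the secreted enzyme autotaxin, had 319 and 355 CPM in footprints and 28.3 and 29.3 CPM in input RNA (3.55). The protease Ctsb, cathepsin B, followed at 3.20. The lowest member was Timp2, an inhibitor of matrix proteases, at 1.17. Lysosomal enzymes and membrane proteins, which travel the same route, were high in 31 of 32 genes (median 2.91). Cd63, a membrane protein of late endosomes and melanosomes, had 4704 and 5059 CPM in footprints and 366 and 375 CPM in input RNA (3.72). Grn, the progranulin precursor (3.25), and Man2b1, a lysosomal mannosidase (2.69), were alike. The one lysosomal gene that was not high was Ids, the sulfatase that removes sulfate from iduronate, at -0.11.

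Antigen presentation by class I of the major histocompatibility complex had the highest median of the lists, 3.51, with 12 of 15 genes high and none low. This pathway loads peptides made by the proteasome onto surface molecules that T cells read. Its list holds the folding factor Canx, which is also counted above, and the related Calr and Pdia3. B2m, the light chain of the surface molecule, had 2061 and 2190 CPM in footprints and 102 and 102 CPM in input RNA (4.38, SE 0.0708). H2-K1, a heavy chain, had 55.1 and 60.4 CPM in footprints and 2.38 and 2.17 CPM in input RNA (4.66), and it shares sequence with other heavy chains. Tap1 and Tap2, which pump peptides into the endoplasmic reticulum, stood at 3.71 and 4.93. The list members that were not high were H2-T22 at -0.06, the immunoproteasome subunit Psmb10 at 0.09 and Tapbpl at 0.25, and these were chosen for naming after their values were seen. Of 22 interferon-stimulated genes, 8 were high and 2 low around a median of 0.76. The 4 of smallest p were Bst2, the membrane protein tetherin (4.91), Isg15, a ubiquitin-like modifier (3.50), Cxcl10, a secreted chemokine (3.49), and Rsad2, which resides on the endoplasmic reticulum (2.98).

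Pigment genes lay on both sides of the centre, with melanosome proteins and enzymes high and the regulators Mitf and Sox10 low. The 22 genes of the list, 21 of which reached the minimum count, together took 7.16 and 7.90% of the footprint counts, against 2.02 and 2.04% of the RNA counts. Dct, the melanin enzyme dopachrome tautomerase, had 26689 and 28557 CPM in footprints and 2279 and 2364 CPM in input RNA (3.57, SE 0.109). Slc45a2, a melanosome transporter, had 1356 and 1417 CPM in footprints and 336 and 348 CPM in input RNA (2.02), and Gpr143, a melanosome receptor, stood at 1.86, or at 0.94 with library totals. Mitf, the transcription factor that switches these genes on, had 98.2 and 99.2 CPM in footprints and 377 and 395 CPM in input RNA (-1.97, SE 0.0527). The libraries of Dct and Mitf lay on opposite sides without overlap. In all, 11 pigment genes were high and 4 were low, with a median of 1.11. The other high genes, named after their values were seen, were the melanosome proteins and enzymes Gpnmb (3.36), Tyrp1 (2.88), Pmel (2.65), Tyr (2.38), Slc24a5 (2.15), Mlana (2.09), Oca2 (1.25) and the small GTPase Rab38 (1.11). The other low ones were Mlph, which links melanosomes to a myosin motor (-1.72), Trpm1, an ion channel (-1.39), and Sox10, a transcription factor (-1.36).

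**Figure D3:**
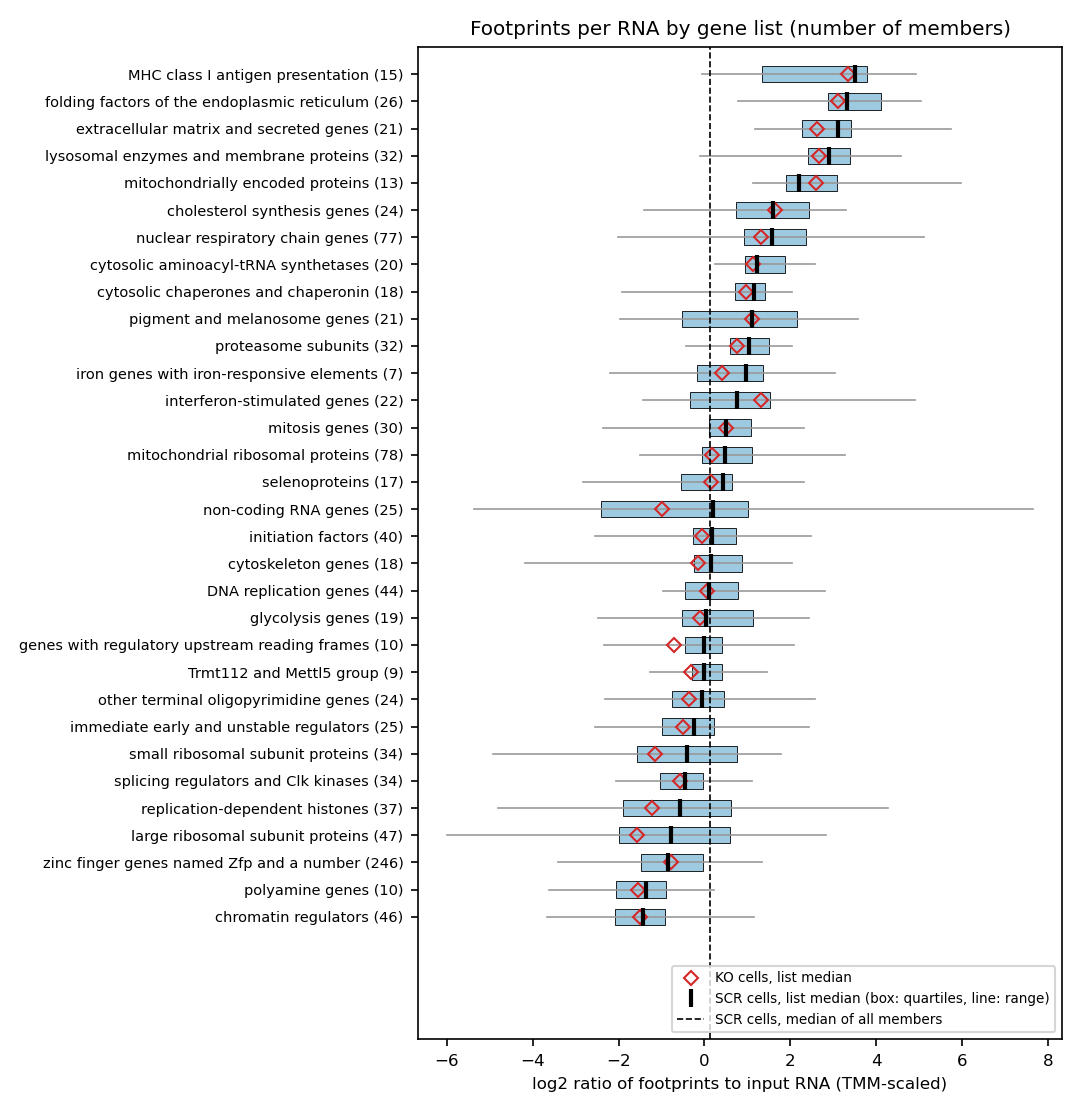
Log2 ratio of footprints to input RNA by gene list, ordered by the SCR median; red diamonds are KO medians, black bars SCR medians, boxes the SCR quartiles, grey lines the SCR range, and the dashed line the median of all 11041 genes in SCR cells (0.12). MHC class I (3.51), endoplasmic reticulum folding (3.31) and secreted genes (3.11) lie at the top and chromatin regulators (-1.42) at the bottom.

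Both genomes that build the respiratory chain gave high ratios. All 13 proteins encoded in mitochondrial DNA were high, with a median of 2.21 and a range of 1.14 to 5.97. With library totals 4 of them were below 2-fold: mt-Nd1 at 0.22, mt-Co1 at 0.23, mt-Cytb at 0.96 and mt-Nd4 at 0.98. These messages are read by the ribosomes of the mitochondrion itself. mt-Co2, a cytochrome oxidase subunit, had 6955 and 6281 CPM in footprints and 248 and 286 CPM in input RNA (4.63, SE 0.121). mt-Co1, the catalytic subunit of the same enzyme, had 5715 and 4979 CPM in footprints and 2422 and 2408 CPM in input RNA (1.15). Subunits of 1 enzyme thus differed widely in their ratios. mt-Atp8 (5.97) overlaps mt-Atp6 (2.21) on the mitochondrial genome, and reads in the shared stretch cannot be assigned to either. Of 77 nuclear genes of the respiratory chain and ATP synthase, 56 were high and 4 low, with a median of 1.56. Ndufa13, a complex I subunit, had 210 and 232 CPM in footprints and 6.83 and 7.60 CPM in input RNA (4.94). Atp5e, a small ATP synthase subunit, stood at 2.98 and Ndufa9 at 2.32. The 4 low genes, named after their values were seen, were the electron carrier Cycs (-2.02) and the ATP synthase subunits Atp5l (-1.39), Atp5g1 (-1.35) and Atp5g2 (-1.11). With its 2 named copies, which held 24.9% of the joint footprints, Atp5l stood at -0.99, inside 2-fold. Proteins of the mitochondrial ribosome were nearer the centre, with 22 of 78 high, 4 low and a median of 0.47.

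Several housekeeping groups of the cytosol lay moderately above the centre. Of 20 cytosolic aminoacyl-tRNA synthetases, which charge tRNAs, 14 were high and none low (median 1.23). Rars had 269 and 277 CPM in footprints and 44.7 and 47.0 CPM in input RNA (2.57). Of 18 cytosolic chaperones, 11 were high and 1 low (median 1.15), with the chaperonin subunits Cct2 at 1.70 and Cct4 at 1.58, whereas Hspa8, the constitutive Hsp70, had 331 and 342 CPM in footprints and 1234 and 1314 CPM in input RNA (-1.92). Of 32 proteasome subunits, 16 were high and none low (median 1.03), with Psmc5 at 1.80 and Psma6 at 1.71. The ratios of Cct2, Cct4, Psmc5 and Psma6 were below 2-fold with library totals. Genes of cholesterol synthesis and uptake, many of whose proteins sit in the endoplasmic reticulum membrane, were high in 15 of 24, with 1 low and a median of 1.61. Msmo1, a sterol oxidase, had 575 and 552 CPM in footprints and 58.7 and 55.5 CPM in input RNA (3.30). The sterol reductase Dhcr7 stood at 2.86.

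Other groups held both high and low genes around medians near that of all 11041 genes. Of 40 initiation factors, 7 were high and 5 low (median 0.18). Eif3k, a subunit of the initiation factor that binds the small subunit, had 260 and 268 CPM in footprints and 46.5 and 47.7 CPM in input RNA (2.49), with its fellow subunit Eif3g at 2.39. Eif4ebp2, a repressor of cap binding, had 48.8 and 44.4 CPM in footprints and 271 and 274 CPM in input RNA (-2.55). Eif4g2, a scaffold for initiation without the cap-binding protein, stood at -2.35. Among 19 glycolysis genes, 6 were high and 4 low (median 0.04). The glucose transporter Slc2a1 had 297 and 303 CPM in footprints and 55.3 and 55.0 CPM in input RNA (2.44). Gapdh, the glyceraldehyde phosphate dehydrogenase, had 42.1 and 44.9 CPM in footprints and 238 and 246 CPM in input RNA (-2.47), and its 3 named copies held 1.31% of their joint footprints and 50.5% of their joint RNA.

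Of 30 mitosis genes, 8 were high and 1 low (median 0.50). Cdk1, the kinase that starts mitosis, had 599 and 638 CPM in footprints and 146 and 141 CPM in input RNA (2.11), and the kinetochore subunit Spc24 stood at 2.32. The low one was Cenpa, the histone of centromeres, with 21.1 and 19.1 CPM in footprints and 104 and 104 CPM in input RNA (-2.37). DNA replication genes were high in 6 of 44 and low in none (median 0.12), with the licensing inhibitor Gmnn at 2.80. Of 17 selenoproteins and helpers, 4 were high and 4 low (median 0.43), with the membrane protein Selenos at 2.33 and Sephs2, which makes the selenium donor, at -2.83. Of 25 immediate early and unstable regulators, 3 were high and 6 low (median -0.24), among them the RNA-decay factors Zfp36l2 (-2.55) and Zfp36l1 (-1.99) and, above the centre, Ier3 (2.44). Of 18 cytoskeleton genes, 4 were high and 3 low (median 0.16), the low ones being the Tuba1 genes described below.

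Chromatin regulators stood lowest of the lists. Of 46 such genes, 33 were low and 1 was high, with a median of -1.42. Kmt2a, a histone H3 lysine methyltransferase, had 42.2 and 42.7 CPM in footprints and 243 and 246 CPM in input RNA (-2.53, SE 0.0472). Ino80d, a subunit of a nucleosome remodeller, had 15.8 and 15.0 CPM in footprints and 156 and 168 CPM in input RNA (-3.39). Mllt6 (-3.47) and Rai1 were lower still, and the high exception was the remodelling ATPase Smarca2 at 1.15. Of 246 zinc finger genes named Zfp and a number, many of them encoding DNA-binding repressors, 106 were low and 7 high (median -0.86). Zfp142 had 7.26 and 6.66 CPM in footprints and 63.8 and 65.7 CPM in input RNA (-3.22). Splicing regulators were low in 10 of 34 genes with 1 high (median -0.46), the lowest of the named ones being Srsf6 at -2.06. Of 25 non-coding RNA genes set beside them, 10 were low and 7 high, with a median of 0.20 and a range of -5.38 to 7.65. Norad had 10.7 and 9.06 CPM in footprints and 169 and 188 CPM in input RNA (-4.18), Tug1 stood at -2.98 and Neat1, a nuclear RNA named after its values were seen, at -5.38.

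Polyamine genes were low in 7 of 10, none was high, and their median was -1.37. Polyamines are small charged molecules needed for growth, and their synthesis is limited by a pair of decarboxylases. Amd1, the decarboxylase of S-adenosylmethionine, had 11.59 and 11.45 CPM in footprints and 140 and 145 CPM in input RNA (-3.62, SE 0.0573, adjusted p = 2.96e-06). Odc1, the decarboxylase of ornithine, had 46.9 and 41.9 CPM in footprints and 192 and 201 CPM in input RNA (-2.15). Oaz1, the antizyme that leads ODC to destruction and is made by a frameshift, had 24.7 and 21.5 CPM in footprints and 164 and 154 CPM in input RNA (-2.79). Oaz2 (-1.84), the synthase Sms (-1.33), the oxidase Smox (-1.41) and the antizyme inhibitor Azin1 (-1.07) were also low. With the named copy of each added, the log2 ratio was -2.04 for Oaz1, -1.20 for Oaz2 and -0.61 for Sms, so Sms was no longer 2-fold low. The spermidine synthase Srm (-0.85) and the acetyltransferase Sat1 (-0.51) lay within 2-fold. The oxidase Paox stood at 0.21 (adjusted p = 0.109) and at -0.70 with library totals.

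Genes with iron-responsive elements, RNA hairpins bound by iron regulatory proteins, lay on both sides of the centre. Ftl1, the ferritin light chain, had 474 and 401 CPM in footprints and 2000 and 2026 CPM in input RNA (-2.20). Fth1, the ferritin heavy chain, had 1025 and 999 CPM in footprints and 396 and 455 CPM in input RNA (1.25). The partners of the same iron store thus lay on opposite sides of the centre, but each has pseudogene copies. Ferritin copies took 45.6% of the footprints of Ftl1 and its copies, against 1.75% of their RNA, and 16.1% of the footprints of Fth1 and its copy, against 0% of their RNA. With copies added, the log2 ratios were -1.35 for Ftl1 and 1.503 for Fth1. The exporter Slc40a1 (3.05) and the importer Slc11a2 (1.47) were high, and the transferrin receptor Tfrc stood at 0.52. With library totals Slc11a2 (0.55) and Fth1 (0.33) were below 2-fold. Genes known for regulatory reading frames upstream of the main one also varied. Ddit3, a stress transcription factor, had 55.3 and 47.4 CPM in footprints and 12.1 and 12.2 CPM in input RNA (2.08), Slc35a4 had 18.1 and 17.5 CPM in footprints and 90.3 and 89.2 CPM in input RNA (-2.33), and the other 8, among them Atf4 at 0.41 and Ppp1r15b at 0.21, lay within 2-fold. Atf4, Atf5, Mdm2 and Ppp1r15b were below 0 with library totals.

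Ribosomal protein genes ranged from -5.99 (Rpl10) to 2.83 (Rpl22l1) in log2 ratio. Of the 34 genes of the small subunit, 13 were low and 7 high (median -0.40), and of the 47 of the large subunit, 22 were low and 7 high (median -0.77). Rpl3, next to the catalytic centre of the ribosome, had 75.8 and 71.5 CPM in footprints and 512 and 515 CPM in input RNA (-2.80). Rpl12 had 82.4 and 80.2 CPM in footprints and 518 and 527 CPM in input RNA (-2.68). Both were low with close replicates, as were Rpl13 (-2.59), Rps7 (-2.34) and Rps4x (-2.05). Summed over genes, the small-subunit list had a log2 ratio of -0.40 and the large-subunit list of -0.57. Of 24 other genes known for such a pyrimidine start, 4 were low and 3 high (median -0.06). They included the elongation factor Eef1b2 with 766 and 737 CPM in footprints and 122 and 130 CPM in input RNA (2.58), and the growth-associated protein Tpt1 with 131 and 130 CPM in footprints and 448 and 448 CPM in input RNA (-1.78).

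The pyrimidine run at the start of the message was found on genes of low and of high ratio alike. A C at the annotated start followed by at least 4 more C or T, searched on the transcribed strand of RefSeq start sites (GRCm38.p6), was found at 823 of 32851 start sites (2.51%). Of 8255 genes described here with a RefSeq protein and a start site, 247 (2.99%) had it, and of 62 ribosomal protein genes 15 (24.2%). Of the other genes known for such a start, 16 had an annotated start site and 3 (18.8%) had the run there. The median log2 ratio of ribosomal protein genes was -0.34 with the run and -0.77 without it. Over all 8255 genes it was -0.01 with the run and 0.02 without it. The sequences below show the genes of the ribosomal and pyrimidine-start lists with the run and the lowest or highest ratios. Each covers 10 bases before the annotated start and 20 from it, 5′ to 3′. Capitals mark the pyrimidine run counted from the annotated start, and pyrimidines before it are left in small letters. The 5 lowest come first:
Rpl35a: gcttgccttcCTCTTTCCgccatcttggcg
Rps6: gaagtcgggcCTCTTTTTCgtgacgcctcc
Rpl15: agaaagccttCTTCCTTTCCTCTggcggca
Rps27: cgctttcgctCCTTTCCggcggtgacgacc
Rpl28: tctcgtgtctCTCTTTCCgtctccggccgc
The 5 highest follow:
Rpl14: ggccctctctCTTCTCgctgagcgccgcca
Rplp2: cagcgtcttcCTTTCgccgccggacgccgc
Nap1l1: gctctcgggtCTTTTTTagcgccatctgct
Rps21: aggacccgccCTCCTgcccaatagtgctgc
Rpl38: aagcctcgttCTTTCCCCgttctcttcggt

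Rpl35a (chr16:33056472-33056501, + strand) and Rpl38 (chr11:114668570-114668599, + strand) both carry a run of 8 pyrimidines at the start. Rpl35a had 28.3 and 26.5 CPM in footprints and 126 and 125 CPM in input RNA (log2 ratio -2.20), whereas Rpl38 had 214 and 203 CPM in footprints and 38.7 and 46.9 CPM in input RNA (2.28). With runs of the same length from the annotated start, they lay on opposite sides of the centre. Pyrimidines directly before that start continue the stretch in both windows and are not counted in the run lengths given here. The longest run of those shown, 13 bases in Rpl15 (chr14:18270967-18270996, - strand), went with a log2 ratio of -2.10. Rps6 (chr4:86857348-86857377, - strand), the small-subunit protein phosphorylated by growth signals, had a run of 9 and a log2 ratio of -2.15. Rps27 (chr3:90213629-90213658, - strand) and Rpl28 (chr7:4792955-4792984, + strand) stood at -1.08 and -0.77. Among the highest, the runs were 5 bases in Rps21 (chr2:180257369-180257398, + strand, 1.79) and in Rplp2 (chr7:141447641-141447670, + strand, 0.60), 6 in Rpl14 (chr9:120571507-120571536, + strand, 0.54) and 7 in Nap1l1 (chr10:111473217-111473246, + strand, 1.08), a histone chaperone. The ratios of Rpl14 and Rplp2 lay within 2-fold of the centre. These are ratios of the parent genes alone. With named pseudogene copies added, Rpl15 stood at -1.55, Rps6 at -1.23, Rpl28 at 0.55, Rpl14 at 1.38 and Rpl38 at 3.23, so Rpl28 changed sign and Rpl14 passed 2-fold. The annotated start is not a start measured in these cells.

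Pseudogenes carried a larger part of the footprints than of the RNA. They took 5.33 and 5.33% of the footprint counts, against 1.85 and 1.86% of the RNA counts. Of the 613 pseudogenes among the genes described here, 492 (80.3%) were high and 25 low, with a median log2 ratio of 2.42, whereas of 10094 protein-coding genes 2454 (24.3%) were high and 2185 (21.6%) low around a median of 0.03. For 288 genes with copies named after them, the copies held a median of 20.0% of the footprints of parent and copies, against 1.36% of their RNA. Adding the copies to the parent brought the log2 ratio up in 269 of the 288, and the median stood at -0.24 with copies and -0.65 without. Among 62 ribosomal protein parents it stood at -0.35 with copies and -0.99 without, and the number at or below -1 was 24 with copies and 31 without. The tables do not say how reads that fit a parent and its copy alike were counted, and the part of such reads in these ratios was not tested.

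The correction differed from gene to gene. Rpsa had 825 and 766 footprint counts and 61281 and 66798 RNA counts, and its 12 copies had 1936 and 1739 footprint counts and 1801 and 2127 RNA counts. Its log2 ratio was -3.25 with copies and -4.94 without. Tpt1 went the same way, at -0.24 with its copies and -1.78 without, since the copies held 66.9% of the footprints and 3.65% of the RNA. Rpl36 stood at -2.28 with copies and -3.53 without. For Rpl12 (-2.68 both ways) and Rpl29 (-4.10 with copies and -4.09 without) the copies held under 1% of the footprints. For Rpl10 the copies held 9.42% of the footprints but 23.4% of the RNA, and the ratio was -6.23 with copies and -5.99 without.

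**Figure D4:**
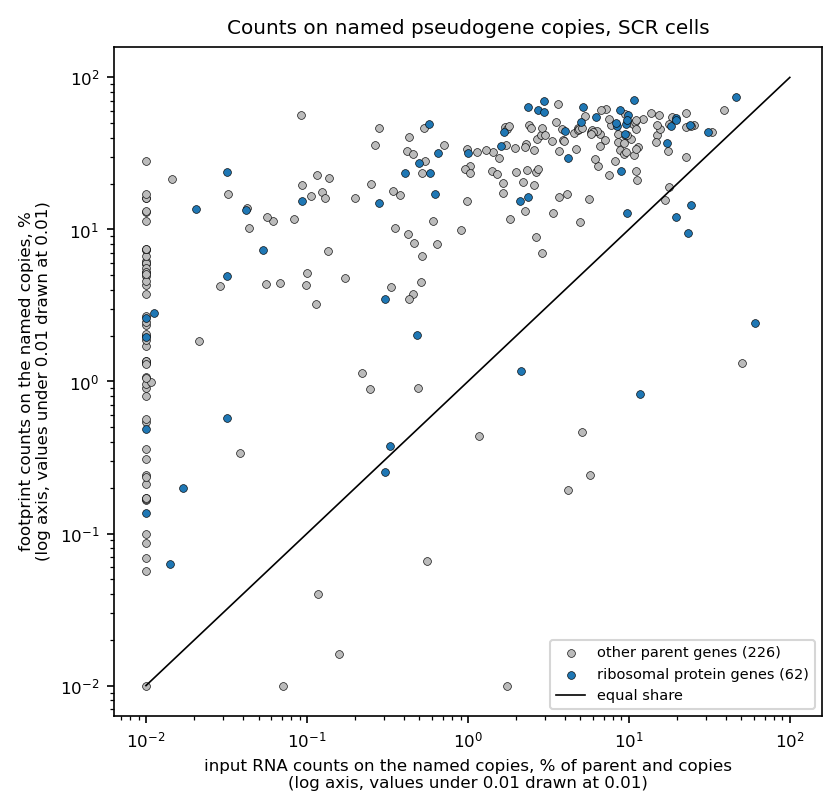
Share of counts on named pseudogene copies, in % of parent and copies together, in the footprints (vertical) and the input RNA (horizontal) of SCR cells; log axes, 1 point per parent gene, 62 ribosomal protein genes in blue and 226 others in grey, shares under 0.01 drawn at 0.01. Most points lie above the line of equal share, with medians of 20.0% in footprints and 1.36% in input RNA.

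Histone and tubulin genes also come in near-identical copies. Of 37 replication-dependent histone genes, 15 were low and 8 high, with a median of -0.57 and a range of -4.82 to 4.28. H3c8 had 9.25 and 7.68 CPM in footprints and 246 and 230 CPM in input RNA (-4.82). H2ac11, an H2A gene, had 66.0 and 68.0 CPM in footprints and 9.29 and 8.74 CPM in input RNA (2.89). The copies of 1 histone type encode nearly the same protein and their reads are hard to tell apart, so sums are safer. Summed over copies, the log2 ratio was -1.86 for H3, -0.45 for H2B, 0.20 for H4 and 0.50 for H2A. The Tuba1 genes, which share most of their coding sequence, summed to 268 and 283 CPM in footprints and 1942 and 1901 CPM in input RNA, a log2 ratio of -2.80, and each of the 3 was low, Tuba1b at -4.18, Tuba1a at -2.94 and Tuba1c at -1.86.

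RNAs that are not translated reached the largest ratios of all. Rn18s, the RNA of the small ribosomal subunit, had 962999 and 899690 counts in footprints (3.43 and 2.87% of the libraries) and 182 and 250 counts in input RNA, a log2 ratio of 13.47. Of 20 small or structural RNAs, 15 were high (median 2.81). The Y RNA Rny1 stood at 10.11. The 3 genes named U2, a spliceosomal RNA, had 25425, 25415 and 25491 counts in the first footprint library, so that near-identical copies received near-identical counts. Rmrp, the RNA of a processing enzyme, had 1949 and 1057 CPM in footprints and 13.8 and 1.23 CPM in input RNA (7.65, SE 1.18), with its libraries further apart than those of most protein genes. Rn18s, Rny1, U2 and Rmrp were named after their values were seen. The protein-coding genes took 80.9 and 83.6% of the footprint counts and 92.5 and 92.5% of the RNA counts. When the fit was run on genes with a RefSeq protein alone, the median log2 ratio of these genes was 0.03, as in the fit over all genes.

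Ratios were lower in genes with long reading frames. The authors deposited a list of reading frames, whose longest frame labelled annotated gave a length for 10123 of the 11041 genes. This length need not be that of the whole protein. It was 16 amino acids for mt-Nd5 and 29 for mt-Cytb, which places these mitochondrial genes in the shortest class. The median log2 ratio was 0.64 for 224 genes of up to 100 amino acids, 0.25 for 1126 of 101 to 200, 0.27 for 1360 of 201 to 300 and 0.18 for 2737 of 301 to 500. It was -0.07 for 2424 genes of 501 to 800, -0.18 for 1284 of 801 to 1200 and -0.45 for 968 longer ones. In the shortest class 40.2% of genes were high and 16.5% low, and in the longest 15.6% were high and 30.3% low. The relation was weak over single genes (Spearman rho -0.149, Pearson r -0.142 with log10 length, n = 10123), as the laminin chain Lamc1 (1607 amino acids, 3.18) and the histone H3c8 (136 amino acids, -4.82) show. The short respiratory chain subunits and the long chromatin regulators lie at the ends of this trend, and how much of their ratios goes with length was not tested.

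Genes for which the authors listed an upstream reading frame had a median log2 ratio of -0.13 (n = 2764), against 0.10 for genes without one (n = 7359). With 3 or more such frames the median was -0.30 (n = 222). For a reading frame inside the main one it was -0.78 with (n = 356) and 0.06 without (n = 9767). For an upstream frame overlapping the main one it was 0.05 with (n = 1180) and 0.03 without (n = 8943). Genes with an upstream frame also had more input RNA, with a median of 44.0 CPM (not per length) against 29.9 CPM in those without, and longer reading frames, with medians of 500 amino acids with and 457 without. How the frames were called is not stated. If a call needed footprints, these features are not independent of depth.

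The authors' deposited table gives a ratio of footprints to RNA for SCR cells, with a median of 0.343 on its own scale. It had the same rank order as the one computed here (Spearman rho 1 over 11041 genes). Because both ratios describe the same SCR libraries, the equal order is no independent check.

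The order of the genes was much the same in KO cells, whose libraries took no part in the choice of genes. The KO libraries are those with columns named POOL, in which Mettl5 counts remained. Over 11039 genes with a value in both, the Pearson r of the log2 ratios was 0.959. In KO cells 2740 of the 11041 genes were high (24.8%, against 31.6% of all genes tested there) and 2683 were low (24.3%, against 34.9%). Of these, 2608 were high in both genotypes, which is 95.2% of those high in KO cells and 84.5% of those high in SCR cells. Likewise 2112 were low in both, 78.7% of those low in KO cells and 92.6% of those low in SCR cells. Just 4 genes were low in KO cells and high in SCR cells, and none the reverse. These were Ggnbp1, Pcbd2 and the predicted genes Gm11100 and Gm19531, named after their values were seen. Each is listed at 0 in both KO footprint libraries, where a 0 in a table of estimated counts can be a failed estimate, so their KO ratios are not given.

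**Figure D5:**
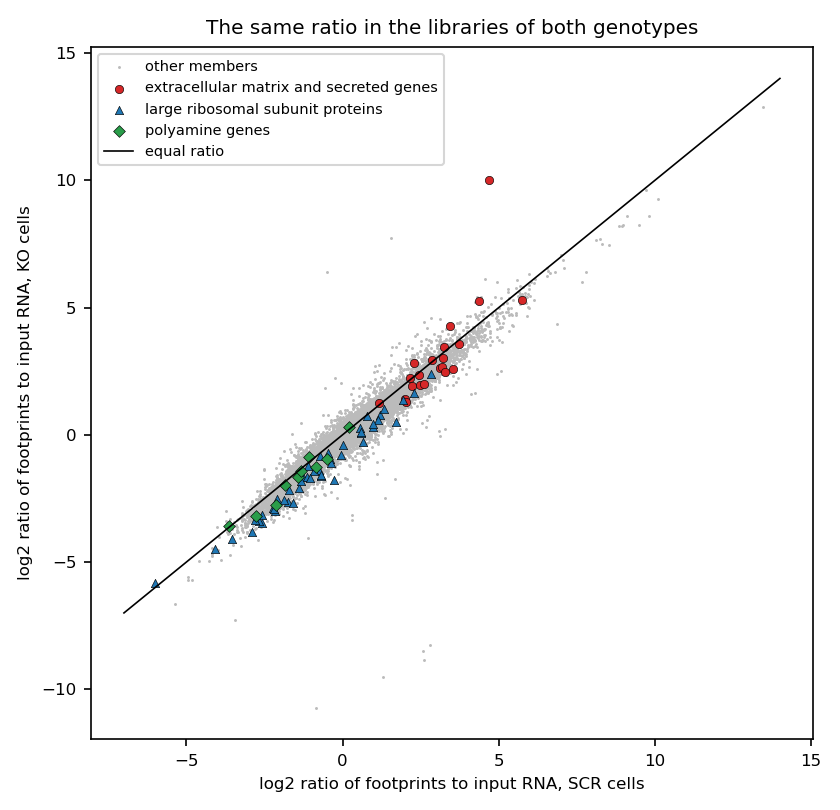
Log2 ratio of footprints to input RNA in KO cells (vertical) against SCR cells (horizontal) for the genes with a value in both; the line marks equal ratios. The points follow the line (Pearson r 0.959, n = 11039), and proteins of the large ribosomal subunit lie below it, with medians of -1.57 in KO cells and -0.77 in SCR cells.

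By list, the order held as well. Endoplasmic reticulum folding factors had medians of 3.12 in KO cells and 3.31 in SCR cells, secreted genes 2.63 in KO cells and 3.11 in SCR cells, MHC class I genes 3.35 in KO cells and 3.51 in SCR cells, and chromatin regulators -1.51 in KO cells and -1.42 in SCR cells. The ribosomal protein lists were lower in KO cells, with medians of -1.16 in KO cells and -0.40 in SCR cells for the small subunit and -1.57 in KO cells and -0.77 in SCR cells for the large one. In the interaction of assay and genotype over all 8 libraries, 854 of the 11041 genes (7.73%, against 4.19% of all genes tested) differed between KO and SCR cells at an adjusted p below 0.05. The KO footprint libraries were the smallest, at 14555963 and 21366608 counts, and the TMM-scaled centre was fitted in each genotype apart, so small differences of medians between genotypes also hold the shift of that centre.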

How the data were processed

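The authors deposited estimated counts per gene and library as whole numbers, not normalized, for input RNA and ribosome footprints. STAR 2.7.10a, StringTie 2.1.7 and the build GRCm39 are listed, without their role, per the submitters' processing notes; trimming, removal of ribosomal RNA, strand setting and the treatment of multi-mapping reads are not given in the sources used here. The authors also deposited a ratio of footprints to RNA per gene and a list of reading frames (caller not stated).

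Counts of the 4 SCR libraries were tested in R 4.3.3 with edgeR 4.0.16 (filterByExpr, TMM scaling, quasi-likelihood F test of footprints against input RNA, two-sided), with Benjamini-Hochberg adjustment over all 21756 genes tested; the KO libraries were fitted likewise, and their difference as an interaction over all 8. SEs come from the fit (n = 2 libraries a group). DESeq2 1.42.0 was an alternative. The fit was also run on simulated data in which a small part of the genes changed, equally often up and down. That simulation does not cover data like these, in which 3088 of the 11041 genes were high and 2281 low. Summaries used Python 3.11.15, numpy 2.4.6, scipy 1.17.1, pandas 2.3.3 and matplotlib 3.10.9. Replicate numbers are not stated to pair footprint and RNA libraries.

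The genes, the lists and the rule for naming genes were chosen with earlier results of these data known. The lists of folding factors, lysosomal genes and chromatin regulators were written after ratios had been seen. No list was tested, and counts of high and low genes in a list cover only its genes that reached the minimum count. Named genes were Mettl5, the 12 highest and 12 lowest ratios past the threshold (fitted mean of at least 5 log2 CPM, a RefSeq protein, no name of a predicted gene) and up to 4 per list by smallest p; some genes that this rule takes are not reported here. Gene classes and start sites come from RefSeq (GRCm38.p6), matched by symbol; genes with no match include Rn18s and the mitochondrial genes.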

Additional observations from a re-analysis of the deposited data

Results flagged for a closer look

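In 24 of 173 named genes the ratio of footprints to input RNA differed between SCR cells and the libraries taken as KO, which still held Mettl5 counts. The test was the interaction of assay and genotype (edgeR, adjusted p from 0.0205 to 0.0498, 2 libraries a group). Over all 11041 genes the share was 7.73%, and over all genes tested 4.19%. Most named genes were chosen by extreme ratio or smallest p, so the count is no result about them as a group. Values are KO minus SCR on the log2 scale, and all but Tap2 were negative. Of ribosomal proteins these were Rpl13 at -0.79, Rpsa at -0.70, Rps7 at -0.65, Rpl12 at -0.63 and Rpl3 at -0.47. Genes with upstream reading frames were Ppp1r15b at -0.81, Ifrd1 at -0.67, Atf4 at -0.63 and Mdm2 at -0.54. Of methyltransferase partners, Trmt112 stood at -1.16 (adjusted p = 0.0498, edgeR) and Bud23 at -0.69. In footprints, Trmt112 had 11.8 and 11.3 CPM in KO cells, against 12.0 and 17.5 CPM in SCR cells. In input RNA it had 22.0 and 19.1 CPM in KO cells, against 11.02 and 11.3 CPM in SCR cells. Iron and polyamine genes were Ftl1 at -1.06 and Odc1 at -0.53. Secreted and lysosomal genes were Enpp2 at -0.90, Ccn1 at -0.77, Grn at -0.57 and Lamc1 at -0.43. Mitochondrial genes were Ndufa13 at -0.72 and Mrpl38 at -0.52. The rest were Ier3 at -0.73, Slc2a1 at -0.53, H2bc8 at -0.46, Hnrnpa1 at -0.39 and, as the one rise, Tap2 at 1.13. In input RNA, Tap2 had 0.385 and 0.256 CPM in KO cells, against 2.55 and 2.21 CPM in SCR cells. In footprints it had 21.3 and 20.0 CPM in KO cells, against 71.2 and 74.3 CPM in SCR cells. Both assays were thus lower in KO cells, and the rise of the ratio rests on very little KO RNA. Negative values also differed in the assay that moved. In footprints, Enpp2 had 601 and 572 CPM in KO cells, against 319 and 355 CPM in SCR cells. In input RNA it had 100 and 97.3 CPM in KO cells, against 28.3 and 29.3 CPM in SCR cells. Ccn1 had 404 and 396 CPM in footprints in KO cells, against 743 and 795 CPM in SCR cells. Its input RNA was at 13.8 and 16.7 CPM in KO cells, against 16.7 and 15.8 CPM in SCR cells.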

How the results depend on the processing

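With library totals in place of TMM scaling, 1667 genes were high and 4878 low, against 3088 and 2281. With a minimum of 200 counts, 2399 genes were high and 1516 low, since fewer genes (8537) reached it. With each library left out in turn, 3039 to 3176 genes were high and 2259 to 2339 low. DESeq2, its size factors, no filter, RefSeq protein genes only, all 8 libraries in 1 fit, a minimum of 10 counts and a 1.5-fold threshold moved neither count by over 1.5 times. With the replicate number as a block, 3087 genes were high and 2284 low. Deviations of same-numbered footprint and RNA libraries correlated at 0.0146. With 2 pairs, this value cannot show whether same-numbered libraries came from the same culture.

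Of 2377 values of named genes under alternatives, 2315 kept direction and side of the threshold, 16 passed it newly, 31 lost it and 15 changed sign. With library totals the ratio was -0.89 for Thumpd2, -0.71 for Ppp1r15b, -0.70 for Paox, -0.54 for Mdm2, -0.52 for Trmt112, -0.51 for Atf4, -0.39 for Atf5, -0.39 for Tfrc and -0.18 for Thumpd3. The log2 ratio of Bud23 was 0.0253 with DESeq2, 0.0256 with its size factors and from -0.0594 to 0.0159 with a library left out (positive without the second footprint library). The log2 ratio of Thumpd2 was -0.0461 with all 8 libraries in 1 fit, -0.0858 with no filter and from -0.0498 to 0.0828 with a library left out (negative without the second input RNA library). Relative to the median of all genes described, 438 of 446 list medians kept their sign; the 8 that did not belonged to lists within 0.2 of it. The cause of these changes was not tested. Depth limits genes near the minimum of 50 counts.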
